A study of Mus musculus with 24 samples.

Results

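The inhibitors of cyclin-dependent kinases (CDKs) of the Cip/Kip and INK4 families were followed in thymus RNA of mice that lack p27, the product of Cdkn1b. All gene probes whose gene name in the scanner files was Cdkn1a, Cdkn1b, Cdkn1c, Cdkn2a, Cdkn2b, Cdkn2c or Cdkn2d were taken, which gave 10 probes for 7 genes among 41174 gene probes with 27962 gene names. All 10 were among the 35185 probes bright enough to be tested. Cdkn1b had 3 probes, Cdkn2c had 2 and each other gene had 1. The question was whether another inhibitor stood higher where Cdkn1b was lost.

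Thymus was taken from 15-week-old C57BL/6 mice of 4 genotypes with 6 mice each, namely wild type, p27 knockout, stathmin knockout (without Stmn1) and double knockout (without both). Each genotype held 3 females and 3 males, but the sources used here do not say which mouse was of which sex or which part of either gene was deleted. Every array carried thymus RNA in Cy5 and 1 common reference in Cy3, a pool of RNA from fibroblasts of all the genotypes, so the reference itself includes cells without Cdkn1b. Each of 6 slides held 1 array of every genotype, and the place on the slide was the same for a genotype throughout, so the effects of the 2 cannot be told apart. RNA of a whole organ was measured, in which fewer cells of a type and less RNA per cell cannot be told apart.

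Cyclin-dependent kinases drive the cell cycle when bound to cyclins. The Cip/Kip proteins p21 (Cdkn1a), p27 (Cdkn1b) and p57 (Cdkn1c) bind complexes of cyclins with several of these kinases. The INK4 proteins p16 (Cdkn2a), p15 (Cdkn2b), p18 (Cdkn2c) and p19 (Cdkn2d) bind Cdk4 and Cdk6 and keep them from D-type cyclins. Cdkn2a also encodes, in another reading frame, an inhibitor of Mdm2 that raises p53. In the thymus p27 and p18 are known to restrain the division of developing T cells, and mice without either have an enlarged thymus.

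The stretch upstream of 3 of these genes is shown for reference, since they are the knocked-out gene itself and an inhibitor on each side of the thymus and fibroblast contrast described next. Each is the 250 bases before the gene's start in the RefSeq annotation of GRCm38.p6, in the direction of the gene, and capitals mark motifs on either strand, none of which overlap. The motifs searched were the GC box, written GGGCGG, the CCAAT box, which its own name spells, and the TATA box, written TATAAA. None of the 3 stretches held a TATA box. Cdkn1b (chr6:134920151-134920400, plus strand) held 1 GC box and 2 CCAAT boxes with 64.4% G and C, Cdkn2d (chr9:21291210-21291459, minus strand) held 3 and 1 with 63.6%, and Cdkn2b (chr4:89311033-89311282, minus strand) held none with 53.6%.
Cdkn1b: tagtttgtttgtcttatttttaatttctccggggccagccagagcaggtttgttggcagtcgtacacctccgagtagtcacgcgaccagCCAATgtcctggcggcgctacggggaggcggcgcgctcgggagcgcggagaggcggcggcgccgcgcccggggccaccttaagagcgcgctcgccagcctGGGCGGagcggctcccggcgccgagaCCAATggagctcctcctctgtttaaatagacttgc
Cdkn2d: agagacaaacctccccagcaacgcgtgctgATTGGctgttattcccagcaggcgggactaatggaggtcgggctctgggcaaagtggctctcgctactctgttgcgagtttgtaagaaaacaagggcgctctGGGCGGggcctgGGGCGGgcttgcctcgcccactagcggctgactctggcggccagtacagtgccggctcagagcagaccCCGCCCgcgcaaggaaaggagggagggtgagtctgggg
Cdkn2b: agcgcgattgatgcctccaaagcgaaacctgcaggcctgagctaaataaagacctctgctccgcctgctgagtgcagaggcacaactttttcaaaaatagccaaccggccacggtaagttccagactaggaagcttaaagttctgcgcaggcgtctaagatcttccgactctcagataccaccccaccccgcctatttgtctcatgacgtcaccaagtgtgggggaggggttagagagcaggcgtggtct
Of 32851 promoter windows of the same length, 32.74% held a GC box, 33.85% a CCAAT box and 12.37% a TATA box. The 3 genes shown do not stand for the others. Cdkn1a and Cdkn2a each had windows with 2 and with 0 GC boxes, and Cdkn2c had windows with 3 and with 0. Cdkn2b and Cdkn2a lie next to each other on chromosome 4, with 0 protein-coding genes between them. Cdkn1c was not matched in the promoter table.

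Cdkn2c and Cdkn2d lay above the fibroblast reference, Cdkn1a, Cdkn1c, Cdkn2a and Cdkn2b lay below it, and Cdkn1b lay on either side by probe. In wild-type thymus Cdkn2d was 6.76-fold and Cdkn2c 5.79-fold and 6.20-fold (its 2 probes) above the reference, and Cdkn1b was 3.47-fold and 1.21-fold above it at its first 2 probes and 1.42-fold below it at the third. At the second Cdkn1b probe the reference cleared the background on 0 of 6 wild-type arrays, and at the third each channel did on 3. The folds at these 2 probes therefore come from signal near background. Cdkn1a was 9.23-fold, Cdkn1c 7.18-fold, Cdkn2a 11.2-fold and Cdkn2b 14.7-fold below the reference. Dyes were not swapped, so these folds are open to dye bias, whereas a comparison of genotypes uses the same dye throughout. All values below are log2 ratios of thymus over reference unless said otherwise, with mean ± SD over mice.

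**Figure D1:**
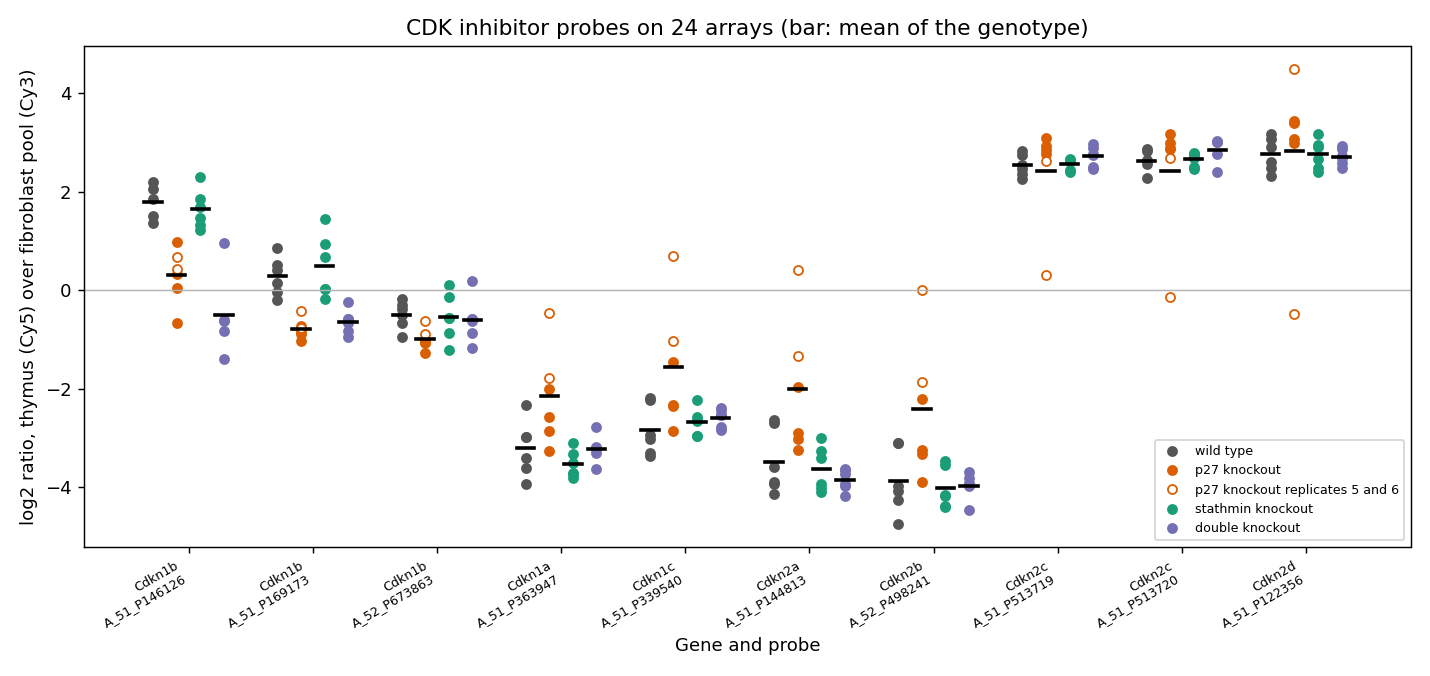
The log2 ratio of thymus (Cy5) over the fibroblast pool (Cy3) is plotted for each of 10 probes (horizontal axis), with 1 point per array, 1 colour per genotype and a bar at the genotype mean. Cdkn1b lies lower in both genotypes without p27 at 2 of its 3 probes, and for Cdkn1a, Cdkn1c, Cdkn2a and Cdkn2b the highest points are p27 knockout replicates 5 and 6 (open points).

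The p27 knockout arrays as a group were dimmer than the rest, which touches every comparison with them. The 99th percentile of Cy5 ranged from 19.4 to 170.6 kilo-units in the p27 knockout. It ranged from 56.3 to 285.7 for wild-type mice, 130.7 to 339.8 where stathmin was lost and 200.2 to 320.0 where both were lost, and the 2 dimmest arrays were p27 knockout replicates 6 and 5. The 9 thymocyte markers (such as Cd4, Cd8a and Rag1) had a median log2 ratio of 4.96 to 7.41 on 23 arrays, as the thymus label calls for, and of 1.24 in p27 knockout replicate 6. In that replicate the median was also near 0 for thymic epithelial (0.05), adipocyte (-0.10), B cell (0.19) and endothelial markers (0.01). Muscle (-0.76) and macrophage markers (-0.50) lay within the range of the other arrays. Its fibroblast markers had the highest log2 of summed Cy5 of the 24 arrays, at 20.06. So replicate 6 differed in more than brightness, and what its Cy5 sample held was not tested. The mean correlation of an array with the others over all probes was 0.56 for replicate 5 and 0.21 for replicate 6, and 0.77 to 0.86 for the other 22. Results that rest on replicates 5 and 6 are therefore given with and without them. Genotypes were compared by limma in a single fit of the 24 arrays, with p-values adjusted by Benjamini-Hochberg over 35185 probes and a threshold of 0.05.

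Cdkn1b RNA was lower in thymus without p27 on both stathmin backgrounds. At its brightest probe (A_51_P146126) the ratio in wild type was 1.80 ± 0.35 (n = 5), with a lowest value of 1.37, a median of 1.85 and a highest of 2.19. In the stathmin knockout it was 1.64 ± 0.40 (n = 6), from 1.21 through 1.58 to 2.30. In the p27 knockout it was 0.30 ± 0.57 (n = 6), from -0.66 through 0.37 to 0.98, and in the double knockout -0.50 ± 0.88 (n = 5), from -1.41 through -0.62 to 0.97. Every measured array without p27 lay below every array with it, and wild type and stathmin knockout overlapped.

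Over both backgrounds Cdkn1b fell by 1.82 ± 0.24 (SE) at this probe, 3.53-fold, with an adjusted p of 0.00145 by limma. The second probe (A_51_P169173) fell by 1.10 ± 0.17, 2.14-fold, with an adjusted p of 0.00639 by limma. These were the 2 of 10 member probes that passed in this comparison, both lower, where 0.0284% of all probes passed. The second was well above background on 12 of 24 arrays, with 1 in the p27 knockout and 0 in the double knockout. It passed the filter mainly through the genotypes that keep Cdkn1b, so its call is not separate support for the first. Without p27 knockout replicates 5 and 6 the first 2 probes differed by -1.88 and -1.14 (limma adjusted p = 0.00212 and 0.00597). The third probe (A_52_P673863), well above background on 11 of 24 arrays, differed by -0.28 ± 0.16 (limma adjusted p = 0.579).

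Within the double knockout Cdkn1b was uneven. Replicate 2 stood at 0.97, while the other 4 measured arrays lay between -1.41 and -0.61. Its raw Cy5 at the same probe was 29087 units, against 6507 to 10189 in replicates 3 to 6, and replicate 2 was also the highest of the 6 at the second probe, at -0.25 against -0.96 to -0.58. Replicate 1 was marked as an outlier spot by the scanner software and left out of the fit at the brightest probe, as was wild-type replicate 1. With these spots kept their ratios were -0.12 and 1.77, and the change over both backgrounds was -1.79 (limma adjusted p = 0.000366).

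Cy5 signal remained well above background at the brightest Cdkn1b probe on all 6 arrays of each genotype. It ranged from 1213 to 18293 units in the p27 knockout and from 6507 to 29087 in the double knockout, over a local background of at most 384. At the second probe the Cy5 signal cleared the background in all 6 wild-type mice, in 5 with the stathmin knockout, in 1 with the p27 knockout and in 0 with the double knockout, and the reference channel in none. There the signal in the stathmin knockout was at least 2.03-fold, and in wild type at least 1.76-fold, that of the double knockout. For this bound each double knockout array took the higher of its own signal at the probe and its dimmest probe that cleared the background. Since the deleted part of the gene is not known here, a probe that kept signal checks nothing about the knockout. The brightest probe is named Cdkn1b in the file by way of a thymus cDNA clone, and the accession of that clone was not matched in the RefSeq gene table.

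**Figure D2:**
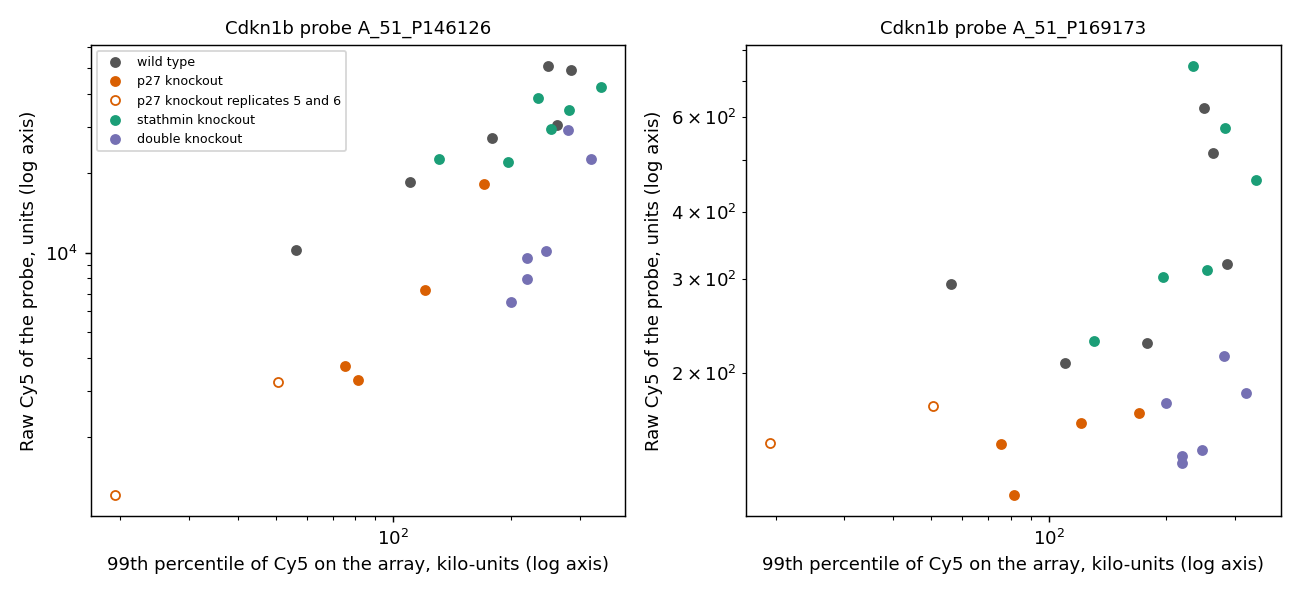
Raw Cy5 of the 2 brightest-changing Cdkn1b probes (vertical, units, log axis) is plotted against the 99th percentile of Cy5 on the same array (horizontal, kilo-units, log axis), with 1 point per mouse and outlier spots included. At A_51_P146126 wild-type replicate 4, at 56.3 kilo-units dimmer than 4 of the p27 knockout arrays, read 10254 units, above 5 of the 6 p27 knockout arrays.

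Cdkn1b was also compared on each background alone. In the p27 knockout against wild type it differed by -1.50 ± 0.34 and -1.06 ± 0.24 at the first 2 probes, and neither passed (limma adjusted p = 0.0790 for both). None of 10 member probes passed there, while 7 had an unadjusted p under 0.05. Over all probes 0.00568% passed and 29.3% had an unadjusted p under 0.05. In the double against the stathmin knockout the first probe fell by 2.14 ± 0.34, 4.42-fold (limma adjusted p = 0.0462), the 1 of 10 member probes to pass where 0.00568% of all probes did. In the double knockout against wild type it fell by 2.30 ± 0.35, 4.91-fold (limma adjusted p = 0.0320), again 1 of 10 where 0.0114% of all passed.

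The first 2 Cdkn1b probes had the same direction on every measured slide and the third did not. In addition, 2 calls of the first probe lay near the threshold and were lost in some fits that left out 1 array. Within slides the first probe was lower on 5 of 5 measured slides and the second on 6 of 6, in the p27 knockout against wild type and in the double against the stathmin knockout. The third was lower on 5 of 6 and on 4 of 6 slides, with a highest difference of 1.06. With the slide as a block, the first probe no longer passed over both backgrounds (adjusted p = 0.115 by limma), and the second still did (0.0102). As given above, the calls of the second probe are not separate support, so this one does not stand in for the first. Neither of the 2 passed in the authors' deposited table, at -0.78 and -1.03 (limma adjusted p = 0.264 and 0.128). The first also did not pass with the replicate number as a block, as given in the closing section. With 1 array left out at a time, both probes passed over both backgrounds in all 24 fits. The call of the first probe in the double against the stathmin knockout held in 6 of 24 such fits (leaving out replicate 1 of any genotype, replicate 4 of the p27 knockout or replicate 2 of the double knockout). The call in the double knockout against wild type held in 13 of the 24 fits, with limma adjusted p values up to 0.138. In the double against the stathmin knockout the change stayed at -2.14 where a wild-type or p27 knockout array was left out. Only the adjusted p moved in those fits. Stathmin loss alone left no call among the members, with 0 of 10 passing in the stathmin knockout against wild type, where 0.00284% of all probes passed. No member probe had an unadjusted p under 0.05 there, and Cdkn1b differed by -0.15 ± 0.34 and 0.21 ± 0.24.

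None of the other inhibitors passed as higher where p27 was lost. Over both backgrounds 0 of the 7 probes of the other 6 genes passed, with a lowest limma adjusted p of 0.579, and 3 had an unadjusted p under 0.05, against 8.22% of all probes. Their median change was 0.62, against 0.04 over all probes tested. It was 0.38 without p27 knockout replicate 6, and 0.27 without replicates 5 and 6, where Cdkn1a stood at 0.42, Cdkn1c at 0.34, Cdkn2a at 0.24 and Cdkn2b at 0.38. With all arrays, the 4 genes that lie below the fibroblast reference made up the upper end, and the 2 that lie above it stood near 0. Without replicates 5 and 6 all 7 probes were above 0. Their median of 0.27 lay above Cdkn2a at 0.24, so the 4 no longer all stood above the other 2 genes. With array weights, which count uneven arrays less, Cdkn1a at 0.60, Cdkn1c at 0.55 and Cdkn2b at 0.69 passed as higher (limma adjusted p = 0.0348, 0.0390 and 0.0383), in a fit in which 4.86% of all probes passed.

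**Figure D3:**
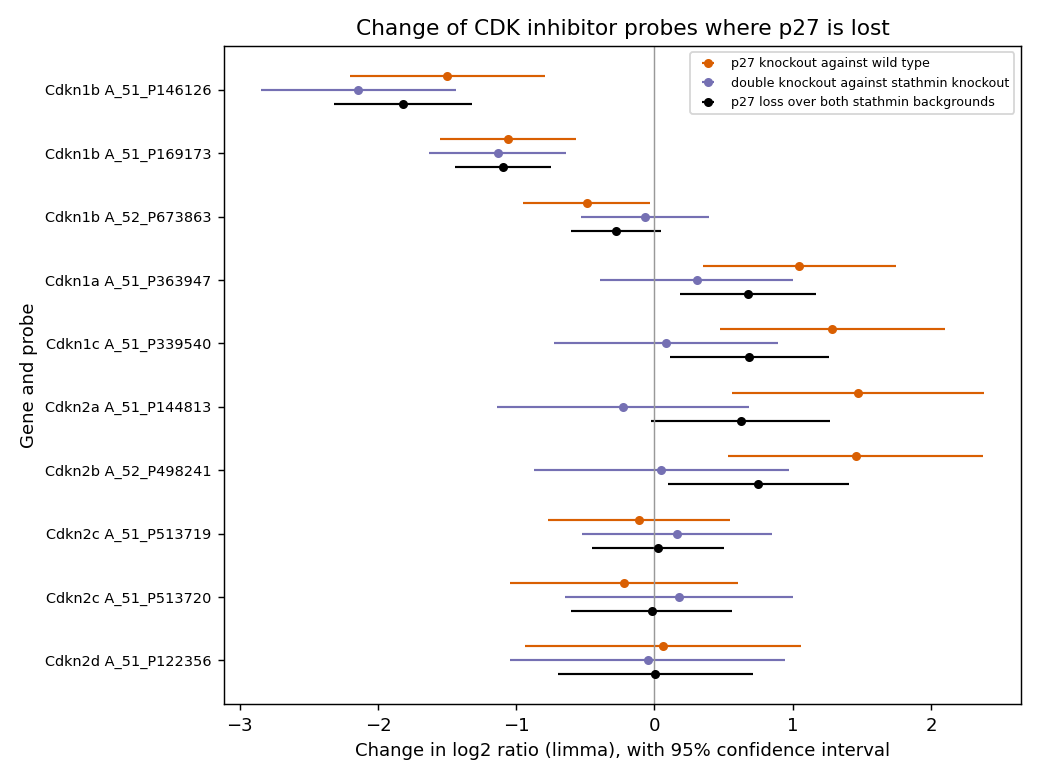
The change in log2 ratio with its 95% confidence interval (horizontal axis) is plotted for each of 10 probes in the p27 knockout against wild type, in the double against the stathmin knockout and over both backgrounds. The intervals of the first 2 Cdkn1b probes lie below 0 in all 3, and those of Cdkn1a, Cdkn1c, Cdkn2a and Cdkn2b lie above 0 in the first comparison and span 0 in the second.

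Cdkn1a, which encodes the p53-induced inhibitor p21, had a ratio of -3.21 ± 0.56 in wild type (n = 6), from -3.93 through -3.19 to -2.34. In the p27 knockout it was -2.16 ± 1.00, from -3.27 through -2.28 to -0.46. With stathmin lost it was -3.53 ± 0.28, from -3.81 through -3.61 to -3.10, and with both lost -3.23 ± 0.27, from -3.63 through -3.22 to -2.79. Of 6 p27 knockout arrays 3 lay within the wild-type range and 3 above it, and the 2 highest were replicates 6 and 5. Cdkn1a differed by 1.05 ± 0.34 in the p27 knockout against wild type (limma adjusted p = 0.0795) and by 0.31 ± 0.34 in the double against the stathmin knockout (95% interval -0.39 to 1.00).

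Cdkn1c encodes p57, the largest Cip/Kip inhibitor and the product of an imprinted gene. Its ratio was -2.84 ± 0.51 in wild type (-3.36, -2.98 and -2.19 as lowest, median and highest) and -1.56 ± 1.29 in the p27 knockout (-2.85, -1.90 and 0.69). Stathmin knockout mice had -2.67 ± 0.27 and double knockout mice -2.59 ± 0.18. Cdkn1c differed by 1.29 ± 0.39 in the first pair (limma adjusted p = 0.0790) and by 0.08 ± 0.39 in the second (95% interval -0.73 to 0.90). Again the wide spread of the p27 knockout came with replicates 5 and 6, at -1.02 and 0.69.

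Among the INK4 genes, Cdkn2a, whose products p16 and the Arf protein act on the Rb and p53 pathways, had a ratio of -3.49 ± 0.65 in wild type (-4.14, -3.75 and -2.64). In the p27 knockout it was -2.01 ± 1.39 (-3.25, -2.43 and 0.40). Stathmin knockout mice had -3.62 ± 0.45 and double knockout mice -3.85 ± 0.21. Its neighbour Cdkn2b, which encodes the TGF-beta-induced inhibitor p15, had -3.88 ± 0.66 in wild type (-4.75, -4.03 and -3.10) and -2.42 ± 1.41 in the p27 knockout (-3.89, -2.73 and 0.00). It had -4.02 ± 0.41 in the stathmin and -3.97 ± 0.27 in the double knockout. The 2 neighbours differed by 1.47 ± 0.44 and 1.46 ± 0.45 in the p27 knockout against wild type (limma adjusted p = 0.0790 for both), and by -0.23 ± 0.44 and 0.05 ± 0.45 in the double against the stathmin knockout. The 95% intervals of the latter were -1.14 to 0.69 and -0.87 to 0.97.

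Cdkn2c and Cdkn2d were the inhibitors above the reference besides Cdkn1b. Cdkn2c (p18) had ratios of 2.53 ± 0.22 and 2.63 ± 0.23 in wild type at its 2 probes, and 2.42 ± 1.05 and 2.41 ± 1.26 in the p27 knockout. On the 5 p27 knockout arrays other than replicate 6 the 2 probes lay between 2.62 and 3.18, and in replicate 6 at 0.30 and -0.13. They were 2.56 ± 0.12 and 2.66 ± 0.14 with stathmin lost and 2.72 ± 0.21 and 2.84 ± 0.27 with both lost. Cdkn2c differed by -0.11 ± 0.32 and -0.22 ± 0.40 in the p27 knockout against wild type and by 0.16 ± 0.33 and 0.18 ± 0.40 in the double against the stathmin knockout. Cdkn2d (p19 of the INK4 family) had 2.76 ± 0.34 in wild type and 2.82 ± 1.70 in the p27 knockout. With stathmin lost it had 2.76 ± 0.30, and with both lost 2.71 ± 0.17. Its p27 knockout values ran from -0.48 in replicate 6 through 3.23 to 4.50 in replicate 5, and the changes were 0.06 ± 0.48 and -0.05 ± 0.48. The 95% interval over both backgrounds was -0.45 to 0.50 and -0.60 to 0.56 for Cdkn2c and -0.70 to 0.71 for Cdkn2d.

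The excess of the 4 fibroblast-high inhibitors in the p27 knockout was smaller without replicates 5 and 6. Without replicates 5 and 6 the change against wild type was 0.53 for Cdkn1a, 0.59 for Cdkn1c, 0.70 for Cdkn2a and 0.71 for Cdkn2b (limma adjusted p = 0.375 to 0.380), and that of Cdkn1b at its first probe was -1.62. Cdkn2c and Cdkn2d, which stood at -0.11, -0.22 and 0.06 with them, were at 0.37, 0.35 and 0.47 without, so the sign of Cdkn2c turned. With the brightness of each array as a covariate the 4 inhibitors were 0.20, 0.30, 0.29 and 0.28, and Cdkn1b was -1.57. All 7 probes of the other inhibitors were above 0 in that fit, with a median of 0.30. The probes of Cdkn2c and Cdkn2d therefore stood no lower there than the 4. With array weights the 4 were 0.77, 0.86, 0.98 and 1.05 and passed as higher (limma adjusted p = 0.0264 to 0.0386), in a fit in which 11.2% of all probes passed. Leaving out p27 knockout replicate 1, 2 or 4 alone also let all 4 pass, and leaving out wild-type replicate 6 let 3 of them pass (not Cdkn1a). In these fits 6.76% to 11.7% of all probes passed, and the first 2 Cdkn1b probes passed as lower in all 4. Within slides each of the 4 was higher on 5 of 6 slides, with medians of 0.55 (Cdkn1a), 0.72 (Cdkn1c), 0.78 (Cdkn2a) and 0.91 (Cdkn2b), and up to 4.75 on 1 slide.

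The raw Cy5 signal of these genes was not higher in the p27 knockout. Cdkn1a read 4628 to 7844 units with a median of 6166 in the p27 knockout and 4747 to 17992 with a median of 8513 in wild type. Cdkn2a read 1137 to 1697 units with a median of 1427, against 1052 to 2105 with a median of 1694. The Cy5 channel as a whole was lower on the p27 knockout arrays, as given above, so raw units are not on 1 scale between these genotypes. With Cy5 alone, brought to the same distribution on every array, the 7 probes of the other inhibitors had a median change of 0.89. Of these 4 were above 0 and 0 passed.

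**Figure D4:**
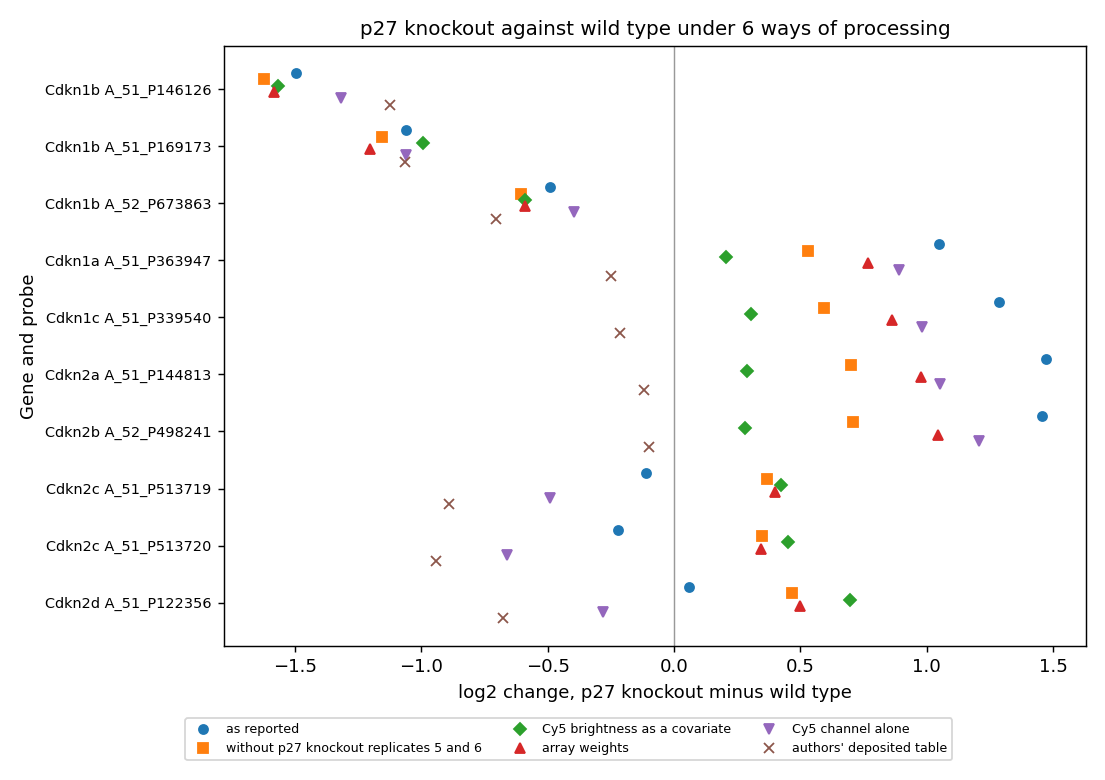
The log2 change in the p27 knockout against wild type (horizontal axis) is plotted for each of 10 probes under 6 ways of processing, with 1 marker per setting and no error bars. Cdkn1b stays below 0 under each of the 6, whereas Cdkn1a, Cdkn1c, Cdkn2a and Cdkn2b range from below 0 (the authors' deposited table) to above 1.

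Fibroblast genes had changes above 0 beside these 4 inhibitors, though none passed. All 8 fibroblast markers (Col1a1, Col1a2, Col3a1, Dcn, Lum, Pdgfra, Pdgfrb and Fn1) were tested, and all 8 had a change above 0 in the p27 knockout against wild type, with a median of 0.91 and 0 passing. Their median log2 ratio ran from -3.35 to -1.19 over p27 knockout arrays and from -3.64 to -2.52 over wild-type arrays, and the log2 of their summed Cy5 from 17.5 to 20.06 and from 17.69 to 18.62. All 8 were well above background on every array, so none was at 0. In p27 knockout replicate 6 the marker median was -1.19 and Cdkn2a stood at 0.40, while in replicate 4 they were -3.35 and -3.25. Without replicates 5 and 6, 7 of the 8 were above 0 with a median of 0.53. Markers of other cells had values that differed too, with 0 passing. Of 6 adipocyte markers 0 were above 0 (median -0.91), of 4 muscle markers 0 (-0.44) and of 9 thymocyte markers 2 (-0.26). Without replicates 5 and 6 the median was -0.30 for adipocyte, -0.29 for muscle and 0.57 for thymocyte markers. What part these genes or the brightness of the arrays play in the values of the 4 inhibitors was not tested beyond the fits above.

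**Figure D5:**
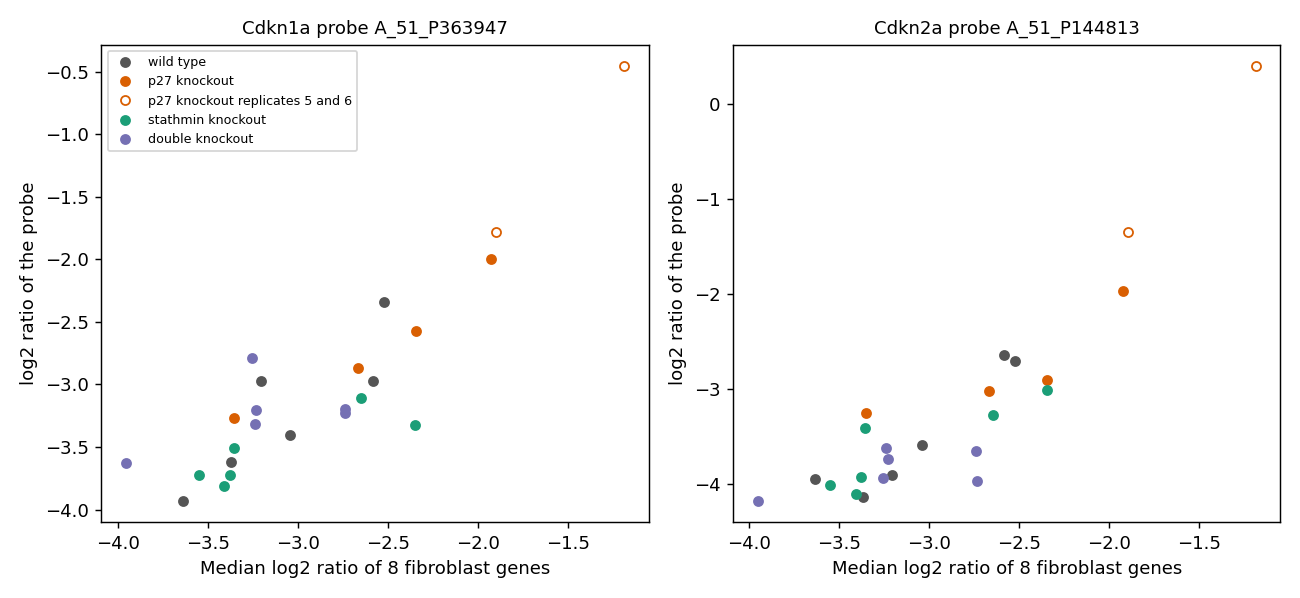
The log2 ratio of Cdkn1a (left) and Cdkn2a (right) is plotted against the median log2 ratio of 8 fibroblast genes on the same array, with 1 point per mouse and 1 colour per genotype. The points share a library and a reference. P27 knockout replicates 5 and 6 (open) lie at the upper right, and p27 knockout replicate 4 lies among the other genotypes.

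Between the genotypes without p27, the double knockout stood below the p27 knockout for the same 4 inhibitors. Cdkn1a changed by -1.07 ± 0.34 (2.10-fold lower), Cdkn1c by -1.03 ± 0.39 (2.04-fold), Cdkn2a by -1.84 ± 0.44 (3.57-fold) and Cdkn2b by -1.55 ± 0.45 (2.92-fold), with limma adjusted p values of 0.0224, 0.0498, 0.00664 and 0.0148. So 4 of 10 member probes passed, all lower, in a comparison in which 30% of all probes passed. The Cdkn1c call held in 4 of 24 fits that left out 1 array, with adjusted p values up to 0.106 and a change of -0.58 without p27 knockout replicate 6. In 14 other settings the change was lower and passed in 3, was lower without passing in 9, and turned in sign in 2. Cdkn2d passed as lower without p27 knockout replicate 6, at -0.77 (limma adjusted p = 0.0190), and the first Cdkn1b probe passed as lower without p27 knockout replicate 1 (-0.99) or double knockout replicate 2 (-1.17). Without p27 knockout replicates 5 and 6 only Cdkn2a of the 4 still passed, at -1.07 (limma adjusted p = 0.0291), and the others were at -0.55, -0.34 and -0.80, in a fit in which 15% of all probes passed. With brightness as a covariate 0 members and 1 of all 35185 probes passed (0.00284%), and the changes of Cdkn1a, Cdkn1c and Cdkn2b turned to 0.16, 0.40 and 0.16. The 2 genotypes do not overlap in brightness (19.4 to 170.6 against 200.2 to 320.0 kilo-units). This fit therefore cannot tell brightness from genotype. The 8 fibroblast genes had a median change of -0.95 in the same comparison, with 5 passing as lower. Markers of most other cells had medians above 0 there. These were 1.01 for 6 adipocyte (2 passing), 0.79 for 6 thymic epithelial (2 passing) and 1.04 for 4 endothelial markers (1 passing). They were 0.69 for 4 macrophage (1 passing), 1.79 for 4 muscle (0 passing) and 0.25 for 4 B cell markers (0 passing). The 9 thymocyte markers had a median of -0.06 (0 passing). Without p27 knockout replicates 5 and 6 the fibroblast median was -0.56 with 0 passing, and 5 of 9 thymocyte markers passed as lower (median -0.96). The medians were then 0.60 for adipocyte, -0.07 for thymic epithelial, 0.38 for endothelial, 0.62 for macrophage, 1.76 for muscle and -0.16 for B cell markers. Of these only 1 thymic epithelial marker passed, as higher. The part of these markers in the values of the inhibitors was not tested.

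Whether the effect of p27 loss differed with stathmin was tested as an interaction. No member passed (0 of 10, where 0% of all probes passed, though 18.4% had an unadjusted p under 0.05). The lowest limma adjusted p among members was 0.258, for Cdkn2a, with an interaction of -1.70 ± 0.62. Without p27 knockout replicates 5 and 6 it was -0.93 (limma adjusted p = 0.488), and again 0 of 10 members passed where 0% of all probes did. Cdkn1b differed between backgrounds by -0.65 ± 0.48 and -0.08 ± 0.34 at its first 2 probes, both with intervals across 0. So the higher values of Cdkn1a, Cdkn1c, Cdkn2a and Cdkn2b in the p27 knockout and not in the double knockout were not shown to differ between the backgrounds by this test.

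The partners of these inhibitors were counted in 5 lists. In p27 loss over both backgrounds 0 of 14 cyclins and kinases, 0 of 7 genes of p27 turnover, 0 of 13 pocket proteins and E2F factors, 0 of 14 upstream regulators and 0 of 16 proliferation genes passed, where 0.0284% of all probes did. Their median changes were -0.06, -0.04, -0.01, -0.03 and -0.13, against 0.04 over all probes. Without p27 knockout replicates 5 and 6 the medians were -0.04, -0.03, 0.10, 0.10 and 0.12, with 0 passing. Above 0 were then 6 of 14, 3 of 7, 13 of 13, 12 of 14 and 15 of 16 genes. With all arrays, the 2 lowest p values among cyclins and kinases belonged to Ccne1 at 0.26, the cyclin that activates Cdk2, and Ccnd3 at -0.38, a D-type cyclin of dividing thymocytes. In p27 turnover they belonged to Uhmk1 at -0.50, a kinase that phosphorylates p27, and Skp1a at -0.20, a subunit of the ubiquitin ligase that marks p27 for degradation. Among pocket proteins and E2F factors they belonged to E2f6 at 0.42, a repressive E2F, and E2f1 at 0.29, an activating one. Among upstream regulators they belonged to Trp53 at 0.68, which encodes p53, and Klf4 at 0.65, a factor known to raise Cdkn1a. The mitotic kinases Aurka at 0.26 and Plk1 at 0.19 had the lowest of the proliferation genes. The limma adjusted p values of these 10 genes lay between 0.579 and 0.646. Without p27 knockout replicates 5 and 6 the first 5 named were at 0.13, -0.05, -0.24, -0.03 and 0.24. The last 5 named were then at 0.15, 0.36, 0.30, 0.25 and 0.20. In the p27 knockout against wild type and in the double against the stathmin knockout 0 genes of any of the 5 lists passed as well, where 0.00568% of all probes passed in each. For 5 of the 10 named genes the values on the 2 backgrounds had opposite signs. Trp53 stood at 1.58 in the p27 knockout against wild type and at -0.22 in the double against the stathmin knockout, Ccne1 at 0.68 and -0.16, Ccnd3 at -0.85 and 0.09, Uhmk1 at -1.09 and 0.08, and E2f1 at 0.60 and -0.03. Without replicates 5 and 6 the first of these values was 0.94, 0.42, -0.20, -0.57 and 0.34 in turn. In the double against the p27 knockout 1 cyclin or kinase passed as higher and 3 as lower, 1 turnover gene as higher, 1 pocket protein or E2F as higher and 3 as lower, 1 regulator each way and 2 proliferation genes as higher, where 30% of all probes passed. Without p27 knockout replicates 5 and 6 the counts, higher and lower, were 1 and 0, 1 and 0, 1 and 2, 0 and 2, and 0 and 0. That fit also had fewer calls over all probes, as given above. With all arrays, Trp53 fell in this comparison by 2.36 (limma adjusted p = 0.00392). Leaving out replicates 5 and 6 of the p27 knockout, it fell by 1.72 (limma adjusted p = 0.0230).

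The genes whose ratio followed each member most closely were taken by correlation over arrays. Over 22 arrays, leaving out p27 knockout replicates 5 and 6, the closest genes were Cpe and Slc16a3 for Cdkn1a (r = 0.92 each), and Sdc2 and Maged2 for Cdkn1c (r = 0.92 each). They were Cthrc1 and Fbn2 for Cdkn2a (r = 0.99 each), and Lhfp and Mxra8 for Cdkn2b (r = 0.97 each). For Cdkn2d they were Dtymk (r = 0.89), which encodes thymidylate kinase, and Coil (r = 0.88), and for Cdkn2c, over 21 arrays, Arhgap9 (r = 0.76) and Cyp3a44 (r = 0.74). For Cdkn1b, over 20 arrays, they were Klra10 (r = 0.83) and Pde6h (r = 0.78), both on chromosome 6 as Cdkn1b is, with 57 and 24 protein-coding genes between. These correlations describe arrays that share a reference and differ in brightness, and they carry no test.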

How the data were processed

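The authors deposited 1 scanner file per array. Per the file headers, Feature Extraction 9.1.3.1 gave each spot's intensity and local background in both channels, and log10 ratios of Cy5 over Cy3. The authors also deposited values on a log2 scale for all arrays, and the sources used here do not say how these were made. They follow the brightness of a spot (correlation with the mean log2 of both channels at least 0.9999, and with the ratio at most 0.067), with unknown centring, and were used as an alternative.

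Here the log2 ratio of Cy5 over Cy3 was taken from the intensities in R 4.3.3 (limma 3.58.1; files read with data.table, version 1.17.8) with normexp (offset 50), loess within arrays, control spots without weight, outlier spots left out, and spots of the same probe averaged. Of 45018 spots per array, 41174 probes were genes. The 35185 with Cy5 well above background on at least 6 of 24 arrays were fitted with genotype as the only term. P27 loss over both backgrounds is the mean of its 2 differences. Mice were separate biological replicates per the labels. The script was checked on simulated data.

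Named were all 7 members, the 2 genes of each list with the lowest p, and the 2 genes with the highest correlation with each member. The members and lists were chosen with earlier results of these data known. Same-numbered arrays had a mean correlation of deviations of 0.03, over 0.1 in 14 of 36 pairs, and were not taken as pairs. In 3 of 4 genotypes the same number lay on the same slide, and same-slide arrays had a mean of 0.12, over 0.1 in 21 of 36 pairs; the slide was fitted as a block.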

Additional observations from a re-analysis of the deposited data

Results flagged for a closer look

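Within a genotype, 3 of 40 groups of values held an array far from the others, where chance gives about 1 in 20 groups. All 3 were in p27 knockout replicate 6, the dimmest array, where the markers of several cell types also had ratios near 0, as given above. Cdkn2c stood there at log2 ratios of 0.30 and -0.13 at its 2 probes, while the nearest p27 knockout array was at 2.62 and 2.69. Cdkn2d stood at -0.48, with the nearest at 3.00.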

How the results depend on the processing

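The fall of Cdkn1b over both backgrounds kept its direction at its first 2 probes under each alternative run, and the other members had calls that moved with the arrays kept. The counts of probes passing over both backgrounds, in the p27 knockout against wild type, double against stathmin knockout, double knockout against wild type and stathmin knockout against wild type were 17, 10, 6, 8 and 2 without background correction (main 10, 2, 2, 4 and 1). With the scanner software's ratios the last 4 were 6, 4, 7 and 2. With Cy5 alone the 1st, 2nd, 3rd and 5th were 18, 9, 8 and 2, and Cdkn1b was at -1.60 in the double against the stathmin knockout (limma adjusted p = 0.0656). Scaling between arrays gave 16, 7, 7 and 2 (1st, 2nd, 4th, 5th). Without the filter the 3rd count was 1 and Cdkn1b -2.14 (0.0514). With 1 probe a gene the last count was 0, and that of the double against the p27 knockout 7003 (main 10572).

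With the slide as a block the 2nd to 4th counts were 0, 0 and 1, and Cdkn1b was at -1.82 (0.115) over both backgrounds, -2.12 (1.00) against the stathmin knockout and -2.30 (0.186) against wild type. With the replicate block, over numbers not taken as pairs, they were -1.82 (0.0709), -2.28 (1.00) and -2.30 (0.226), and the 3rd to 5th counts were 1, 2 and 2. Array weights gave 1710, 3927, 21, 388 and 9, with Cdkn1b at -1.58 (0.0216) in the p27 knockout. Without p27 knockout replicates 5 and 6 the 2nd to 5th were 1, 1, 57 and 4, the double against p27 knockout 5275, and Cdkn1b -2.14 (0.0744) against the stathmin knockout. The brightness covariate gave 0 in the p27 knockout against wild type and 1 in the double against the p27 knockout, whose arrays do not overlap in brightness. The authors' table gave 9266, 1, 2 and 18288 (p27 knockout, double against stathmin knockout, against wild type, against p27 knockout), with Cdkn1b at -0.78 (0.264), -1.12 (0.0344), -0.43 (1.00) and -0.36 (0.676) in the first 4 comparisons.

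In the double against the p27 knockout, signs reversed in the authors' table for Cdkn1a (0.53), Cdkn1c (0.61), Cdkn2a (0.26) and Cdkn2b (0.28), and with the brightness covariate for Cdkn1a (0.16), Cdkn1c (0.40) and Cdkn2b (0.16). In that table Cdkn1b passed at 0.76, Cdkn2c at 1.28 and 1.30 and Cdkn2d at 0.91. The cause was not tested.

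Leaving out 1 array at a time gave 6 to 15 probes over both backgrounds, 0 to 4111 in the p27 knockout, 0 to 3 in the double against the stathmin knockout, 1 to 27 and 1 to 4 against wild type, 8074 to 12101 in the double against the p27 knockout and 0 for the interaction. Cdkn1b ranged from -2.004 to -1.71, -1.63 to -1.31, -2.51 to -1.92 and -2.66 to -2.07 in the first 4. Keeping outlier spots was chosen after seeing the data. With signal near background, Cdkn1b probes other than the brightest limit what can be measured.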
